A study of Homo sapiens with 8 samples.

Results

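In PC3 cells with a stable knockdown of DAXX (K/D), 28.7% of the DAXX ChIP-Seq peaks lay on a region marked at Lys4 of histone H3 in the same cells, 24.0% lay beside such a region within 1 kb, and 47.3% lay farther away. The description covers 42876 DAXX peaks and 72181 H3(Lys4) regions of K/D cells on chromosomes 1 to 22, X and Y, of 249711 peaks and regions in the 6 lists of the series. A DAXX peak was placed on a region if it had at least 1 bp in common with it, within 1 kb if at most 1000 bases separated them, and farther otherwise. PC3 is a prostate cancer line grown from a bone metastasis. K/D cells carried a lentiviral shRNA against DAXX and were kept under puromycin. WT cells, used for comparison, are called wild type in the labels, while the series text and the methods describe a line with a non-target control shRNA, so WT here stands for either. Chromatin of both lines was crosslinked in 2 steps (disuccinimidyl glutarate between proteins, then protein to DNA), and the peaks of each library were called against input chromatin of the same line. Each group was 1 library, so every comparison of K/D with WT below compares libraries, and the 95% intervals cover counting error only. The label of the histone antibody has a prefix that is not spelled out, so the state of Lys4 methylation is not given and H3(Lys4) is written throughout.

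DAXX is a histone chaperone that deposits the variant H3.3 together with ATRX, and it also acts as a co-repressor that brings histone deacetylases and the DNA methyltransferase DNMT1 to transcription factors. It does not read a DNA sequence by itself. Methylation at Lys4 of H3 marks promoters and enhancers, usually on the nucleosomes that flank the site where transcription factors sit. AP-1, a dimer of JUN and FOS family proteins, is a common occupant of enhancers in invasive cancer lines. The lists hold no measure of DAXX protein or RNA in K/D cells.

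The DNA under the first peaks of the K/D list is printed as an example of each place. The sequences are whole 171 bp peaks in hg19 (GRCh37), plus strand, with matches to AP-1 (TGACTCA or TGAGTCA, which are each other's reverse complement) in capitals. They are the first 2 peaks of each place in the order of the list, after leaving out the peaks of 1 chromosome, which are not printed here. Of the 6, 2 hold AP-1 letters, and the share of all peaks that hold them, given further on, was near 35% in each place.
on a region, chr14:56269918-56270088, intergenic, KTN1 nearest: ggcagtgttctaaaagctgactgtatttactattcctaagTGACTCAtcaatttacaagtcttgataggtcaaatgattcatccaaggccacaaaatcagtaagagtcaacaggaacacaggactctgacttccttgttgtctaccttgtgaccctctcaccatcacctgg
on a region, chr10:80919233-80919403, intron of ZMIZ1: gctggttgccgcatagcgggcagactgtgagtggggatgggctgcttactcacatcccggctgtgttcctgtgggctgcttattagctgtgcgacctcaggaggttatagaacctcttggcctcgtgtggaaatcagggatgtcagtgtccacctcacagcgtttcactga
within 1 kb, chr10:33624980-33625150, intron of NRP1 next to a start: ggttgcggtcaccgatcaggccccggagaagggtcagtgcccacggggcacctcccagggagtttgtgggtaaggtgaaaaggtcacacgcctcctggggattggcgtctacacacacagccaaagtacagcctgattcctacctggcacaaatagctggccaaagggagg
within 1 kb, chr10:75666470-75666640, intergenic, PLAU nearest: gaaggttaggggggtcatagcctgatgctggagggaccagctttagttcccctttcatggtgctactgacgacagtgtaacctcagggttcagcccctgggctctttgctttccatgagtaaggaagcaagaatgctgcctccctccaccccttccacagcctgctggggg
farther, chr10:33553223-33553393, intron of NRP1: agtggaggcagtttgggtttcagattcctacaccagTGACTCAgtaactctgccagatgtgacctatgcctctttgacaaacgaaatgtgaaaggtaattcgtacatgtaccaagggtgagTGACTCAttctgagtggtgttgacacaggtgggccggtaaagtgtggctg
farther, chr10:81923473-81923643, intron of ANXA11: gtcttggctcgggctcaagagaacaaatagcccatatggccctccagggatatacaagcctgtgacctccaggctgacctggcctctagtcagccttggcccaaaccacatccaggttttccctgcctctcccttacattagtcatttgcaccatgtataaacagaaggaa

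The peak near KTN1, which encodes the motor receptor kinectin, crossed the left edge of a 630 bp region with its centre 19 bp outside. The peak in ZMIZ1, which encodes a coactivator, lay whole in a 2365 bp region, 590 bp from its right edge. The peak at NRP1, the gene of the co-receptor neuropilin 1, lay 125 bp downstream of the transcription start and 236 bp from a 501 bp region. The peak 4307 bp upstream of PLAU, which encodes urokinase, lay 112 bp from another 501 bp region. The intronic NRP1 peak was the first of the whole K/D list, held 2 AP-1 matches and lay 7.13 kb from the nearest region. The peak in ANXA11, an annexin gene, lay 81.2 kb from any region. All 15 first peaks (5 of each place) had a DAXX peak in WT cells too.

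H3(Lys4) regions covered 2.25% of the genome without assembly gaps and the zone within 1 kb of them 4.57%. DAXX peak centres were 153 per Mb inside K/D regions, 95.4 per Mb in the 1 kb zone and 7.71 per Mb farther away. The density on regions was 19.9 times that farther away (95% interval 19.4 to 20.4, from Poisson rates), and the density in the 1 kb zone was 12.4 times that farther away (12.1 to 12.7). In numbers of peaks, 12292 were on a region (28.7%, exact binomial interval 28.2 to 29.1), 10298 within 1 kb (24.0%, 23.6 to 24.4) and 20286 farther (47.3%, 46.8 to 47.8). The order of the first 2 places depended on the rule. With the peak centre required in the region 23.0% of peaks were on regions and 29.1% beside them, and in the first 50% of the DAXX list the shares were 25.2% and 31.6%. With the first 50% of the region list alone, 20.7% were on regions and 14.7% beside them. WT cells had 59761 DAXX peaks and 72064 regions, and 37.4% of the WT peaks were on a WT region, 19.5% within 1 kb and 43.1% farther.

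The share of DAXX peaks on regions was lower in K/D than in WT cells, with a difference of K/D minus WT of -8.71 points (Newcombe interval -9.29 to -8.13), and the share within 1 kb was higher by 4.48 points (3.96 to 4.99). The density on regions over that farther away was 19.9 in K/D and 24.0 in WT, with intervals that did not overlap. The density in the 1 kb zone over that farther away was 12.4 in K/D and 12.1 in WT, and the density on regions over that in the zone was 1.61 in K/D and 1.99 in WT. The K/D libraries had fewer tags in peaks than the WT libraries, 6.83% against 15.8% for DAXX and 15.1% against 23.9% for H3(Lys4), and the part of this in the lower share was not tested. With the lists cut to equal length in deposited order the difference on regions was -8.08 points (-8.70 to -7.45). This cut left the region lists nearly as they were, since they held 72181 and 72064 regions. WT regions were wider, with a median of 756 bp against 644 bp, and covered 2.73% of the genome against 2.25%. The part of this in the difference was not tested. With WT regions for both DAXX lists the difference was -6.71 points (-7.29 to -6.12).

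The place of a peak depended on its position in the list. HOMER, the peak caller, writes stronger peaks first, and the score column held 1 value throughout, so the deposited order served as the rank. In the first 10% of the K/D list 18.8% of peaks were on a region, 39.9% within 1 kb and 41.3% farther. In the last 10% of the list 32.7% were on a region, 10.9% within 1 kb and 56.4% farther. Among the first 100 K/D peaks 7 were on a region, 51 within 1 kb and 42 farther. In WT cells 29.1% of the leading 10% and 38.6% of the closing 10% were on a region, and 31.4% and 9.50% were within 1 kb. The share on regions was lower in K/D than in WT in each of the 10 equal bins of the list. Of the first 100 K/D peaks, 30 were on chromosome 10, 16 on chromosome 8 and 9 on chromosome 14, and each of these 3 chromosomes held over 1.5 times more of the first 1000 peaks than of the whole list. Without them, 19.6% of the peaks in the first bin and 33.4% of those in the last bin were on a region.

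**Figure D1:**
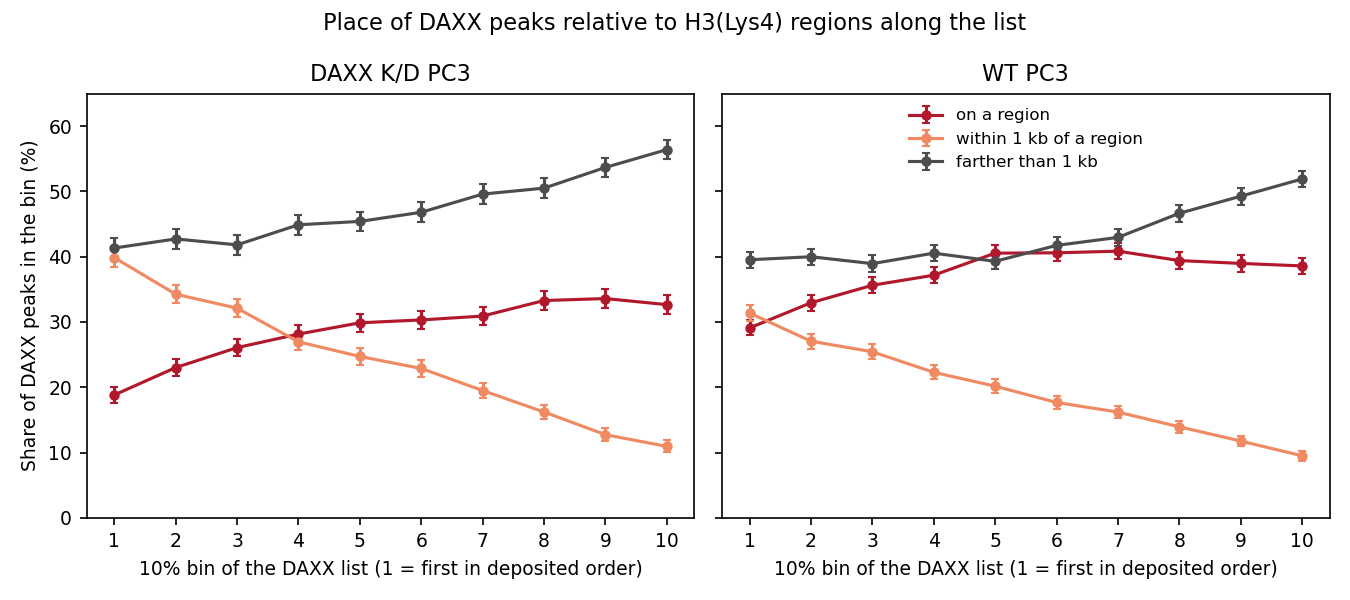
Share of DAXX peaks (%) on an H3(Lys4) region, within 1 kb of one and farther than 1 kb, by bins of 10% of the DAXX list in deposited order, K/D cells left and WT cells right, with exact 95% binomial intervals. In K/D cells the 1 kb class made up 39.9% of the first bin and 10.9% of the last, while the class on regions made up 18.8% and 32.7%.

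DAXX was denser just outside the edges of the regions than just inside them. K/D peak centres numbered 200 per Mb (193 to 208) in the first 100 bp outside an edge and 196 per Mb from 100 to 200 bp, against 140 per Mb (134 to 147) in the first 100 bp inside and 119 per Mb (113 to 124) from 100 to 200 bp inside. Outside, the density was 141 per Mb at 200 to 300 bp, 73.0 at 400 to 500 bp, 40.3 at 500 to 1000 bp and 21.5 at 1 to 2 kb, and it was 2.55 per Mb beyond 50 kb. Deep inside, at 500 to 1000 bp from the nearest edge, the density was 242 per Mb (233 to 252), which only regions of at least 1000 bp can reach. The median peak of the 1 kb class lay 203 bp from its region in K/D cells and 153 bp in WT cells. WT cells had 324 centres per Mb in the first 100 bp outside and 191 per Mb in the first 100 bp inside.

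**Figure D2:**
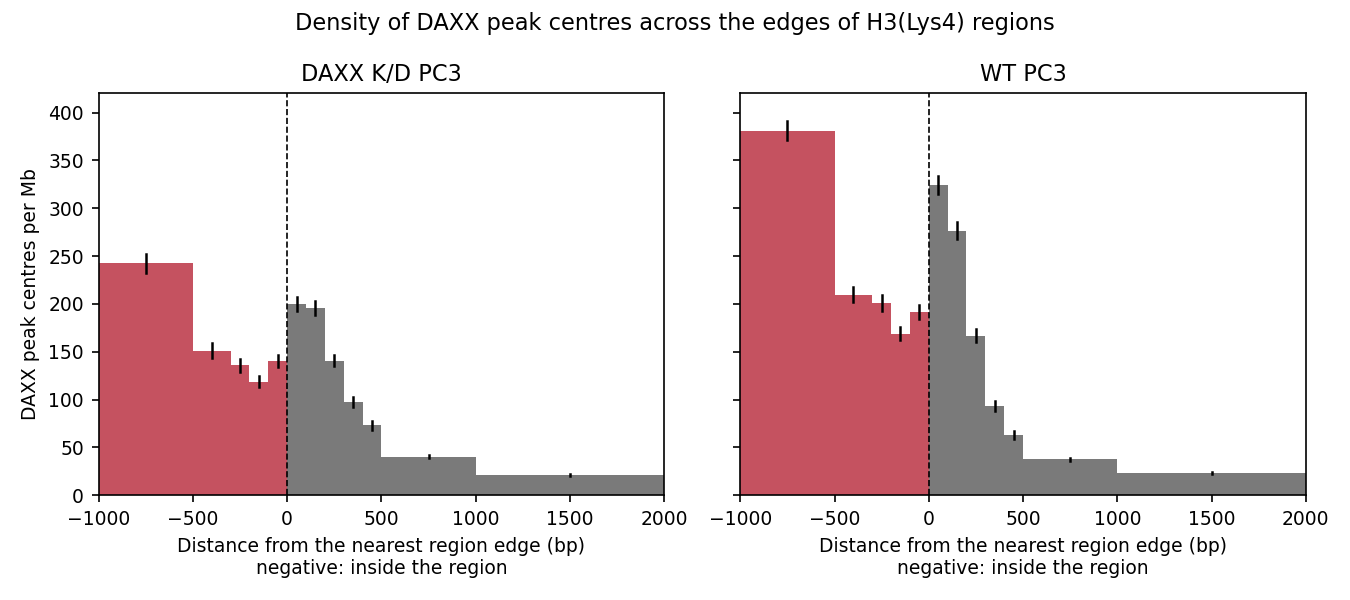
DAXX peak centres per Mb by distance from the nearest edge of an H3(Lys4) region in bp, K/D cells left and WT cells right, with negative distances inside regions in red, outside in grey, and 95% Poisson intervals as vertical lines. In K/D cells the first 100 bp outside held 200 centres per Mb and the first 100 bp inside 140 per Mb.

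Many peaks on regions touched an edge as well. Of the 12292 K/D peaks on a region 66.2% lay inside it whole and 33.8% (32.9 to 34.6) crossed an edge, 19.6% of the total with their centre outside. In WT cells 28.5% crossed an edge. Requiring the centre in the region therefore left 23.0% of K/D peaks on regions.

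The density beside a region over that across the whole region went with its width. Of the K/D regions 30195 (41.8%) had the minimum width of 501 bp. Around these the density within 200 bp outside was 1.66 times that over the whole region (1.56 to 1.77). The ratio was 1.34 (1.27 to 1.42) for wider regions of under 1000 bp and 1.05 (0.97 to 1.12) for regions of 1000 to 2000 bp. For regions of 2000 bp and more it was 0.96 (0.84 to 1.10). The intervals of both wider classes included 1. WT regions gave 1.76, 1.44, 0.99 and 0.90 in the same order of widths. At the edge itself, DAXX was denser outside at every width in K/D cells. The first 50 bp outside held 188, 212, 163 and 119 centres per Mb in that order. The first 50 bp inside held 146, 177, 133 and 73.8 per Mb.

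Inside regions, the position of DAXX also went with width. Over all K/D regions 25.9% of centres (25.0 to 26.7) fell in the middle 20% of their region, where an even spread would give 20%. In regions of 1000 to 2000 bp the middle bin of 20% held 35.3% (33.7 to 37) and the outer bins at each edge 13.1% and 13.6%. In regions of 2000 bp and more the 3 inner bins held 26.0%, 24.5% and 24.8%, and the outer ones 12.3% each. In regions of 501 bp the largest share, 24.5%, was in the right outer bin, and in wider ones of under 1000 bp no bin held more than 21.1%. In WT regions of 1000 to 2000 bp the middle bin held 38.8%. K/D regions that held a transcription start had 22.9% of their centres in the middle bin (20.1 to 25.9) and regions without a start 26.1% (25.2 to 27.1). These intervals overlapped, and the median widths, 1413 bp with a start and 637 bp without, were not held equal.

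**Figure D3:**
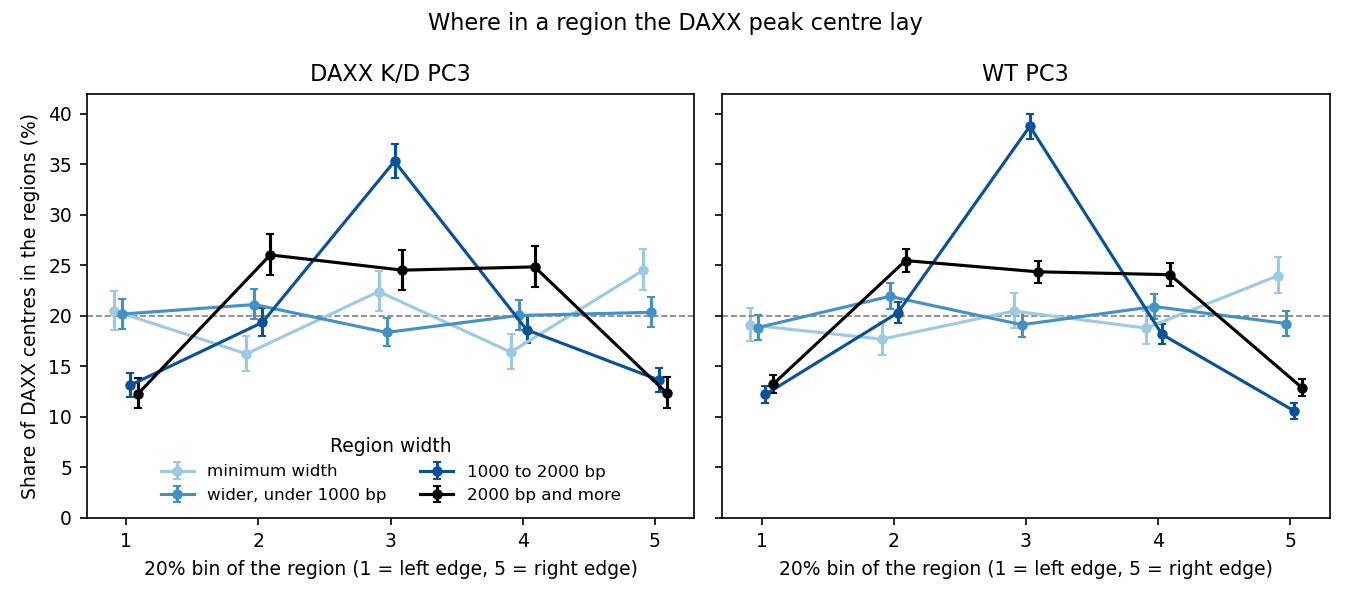
Share of DAXX peak centres (%) in each 20% of their H3(Lys4) region from the left edge to the right edge in genome orientation, by region width, K/D cells left and WT cells right, with exact 95% binomial intervals and a dashed line at the even share of 20%. The middle 20% stands out in regions of 1000 to 2000 bp, with 35.3% in K/D and 38.8% in WT cells.

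Short gaps between regions were denser in DAXX than the regions themselves. Neighbouring K/D regions were at least 499 bp apart, and gaps of under 750 bp held 349 DAXX centres per Mb (327 to 371). Of the 4447 such gaps 21.4% held at least 1 centre. The density was 263 per Mb in gaps of 750 to 1000 bp, 162 in gaps of 1000 to 2000 bp and 67.8 in gaps of 2000 to 5000 bp. It was 8.09 in gaps of 20000 bp and more, whose area includes assembly gaps. The shortest gaps held 503 per Mb in WT cells. In K/D gaps of 5000 to 20000 bp, 32.3% and 31.4% of the centres fell in the outer 20% at either end, next to a region, and 11.7% in the middle 20%. Of the 10298 peaks of the 1 kb class 2124 (20.6%) had a region within 1 kb on both sides, and in WT cells 22.1% did.

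Seen from the regions, 11698 of 72181 K/D regions (16.2%, 15.9 to 16.5) carried a DAXX peak, against 27.9% of WT regions. The share was 9.12% for K/D regions of 501 bp, 16.1% for wider ones of under 1000 bp, 25.4% for 1000 to 2000 bp and 36.8% for 2000 bp and more, and in WT cells it was 14.4%, 24.5%, 39.0% and 55.6%. In the first 10% of the K/D region list, with a median width of 2091 bp, 32.3% carried DAXX, and in the last 10%, with a median of 501 bp, 5.82% did. Only 572 K/D regions held 2 or more peaks and the most in 1 region was 4, while 2005 WT regions held 2 or more.

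The region with 4 K/D DAXX peaks was a 4743 bp region in BBC3, the gene of the pro-apoptotic protein PUMA (chr19:47729298-47734040), and 2 of these peaks were also called in WT cells. Another 20 regions held 3 peaks each. The first 4 of these in the region list were a 4256 bp region at EFNA1, which encodes the ligand ephrin A1, a 7605 bp region in PCED1B, a 5192 bp intergenic region 450 kb from THBS1, the thrombospondin 1 gene, and a 4544 bp intergenic region 39.1 kb from TNFSF10, the gene of the death ligand TRAIL. The 5 widest K/D regions held at most 1 peak each. The widest K/D region (10227 bp) held the start of RGMB, a BMP co-receptor gene, and 1 DAXX peak. The regions at TBX3 (8298 bp) and CPEB4 (7968 bp) held 1 each, and those at BTG1 (8799 bp) and BCOR (7937 bp) held none, with 1 peak within 1 kb at BTG1.

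How often a K/D peak was also called in WT cells went with its position in the list. A WT DAXX peak was present at 76.2% (75.4 to 77.1) of K/D peaks within 1 kb of a region, 66.8% (65.9 to 67.6) of those on a region and 63.3% (62.6 to 64.0) of those farther away. The 1 kb class sat early in the list, where sharing was high in every place, and within bins of 10% the share on regions was above that within 1 kb in 8 of 10. The mean difference over bins, within 1 kb minus on regions, was -1.38 points, while the pooled one was 9.46 points. Early peaks were shared more often whatever their place, 98.1% on regions and 97.3% farther away in the first 10% of the list, against 35.4% and 29.0% in the last. Within each bin of 10% the share on regions was above that farther away, and the mean difference over bins was 4.20 points. With the peak centre required in the region the pooled difference was 0.56 points (-0.60 to 1.71), which includes 0.

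Of all K/D DAXX peaks 67.4% had a WT DAXX peak, and of the longer WT list 48.4% had a K/D one. Of K/D regions 48.2% overlapped a WT region, and of WT regions 45.8% a K/D one. Of K/D peaks on a K/D region 41.3% (40.4 to 42.2) were on a WT region, 19.5% were within 1 kb of one and 39.2% were farther. Of K/D peaks farther from every K/D region 23.6% (23.0 to 24.2) were on a WT region. On either a K/D or a WT region were 47.5% of all K/D DAXX peaks, and on both 11.8%. Within 1 kb of, or on, a region of either line were 71.4% (71.0 to 71.9), which left 28.6% far from the regions of both. A K/D region overlapped a WT region in 54.5% (53.6 to 55.4) if it carried DAXX and in 46.5% (46.1 to 47.0) if no DAXX peak lay within 1 kb. These shares differed by width. Among regions of 501 bp the shares were 36.0% with DAXX and 33.3% without, and among those of 2000 bp and more they were 79.8% (77.8 to 81.7) with DAXX and 83.8% (82.3 to 85.3) without, in the opposite order.

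The list of DNMT1, the maintenance DNA methyltransferase, was short, which limits how many DAXX peaks could meet it. The K/D DNMT1 list held 595 peaks against 42876 of DAXX, and 203 DAXX peaks (0.47%) overlapped one. By place, 0.49% of DAXX peaks on regions, 0.65% within 1 kb and 0.37% farther away did. In WT cells, with 2234 DNMT1 peaks, the shares were 2.30%, 2.31% and 1.52% in the same order. Of the DNMT1 peaks themselves 20.8% (17.6 to 24.3) were on a K/D region, 29.9% within 1 kb and 49.2% farther.

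By gene annotation, the promoter share was highest beside regions. Promoter windows, which reached 1000 bp upstream of protein-coding starts and 100 bp past them, made up 1.12% of the genome. They held 12.0% (11.4 to 12.7) of K/D DAXX centres within 1 kb of a region, 8.55% (8.06 to 9.06) of those on a region and 3.77% (3.51 to 4.04) of those farther away. The share on regions was 4.78 points above that farther away (4.23 to 5.35). Introns held 48.4% of peaks on regions, 44.4% within 1 kb and 46.9% farther. The median distance to a start was 34.0 kb on regions, 32.9 kb within 1 kb and 44.6 kb farther. K/D regions that held a start, 3784 of them with a median width of 1413 bp, carried DAXX in 21.6% (20.3 to 23.0). Those without a start, with a median width of 637 bp, did so in 15.9% (15.6 to 16.2). They were not compared at equal width. Of all K/D regions of 1000 to 2000 bp, 25.4% carried DAXX, and of those under 1000 bp but above the minimum width, 16.1% did. Of the peaks within 1 kb of a start 62.2% of those on regions, 65.1% of those beside regions and 66.0% of those farther away lay upstream of it.

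Motif letters were searched on both strands in the 201 bp around each centre. AP-1 letters were at 34.7% (33.8 to 35.5) of K/D peaks on regions, 35.4% (34.5 to 36.3) within 1 kb and 35.8% (35.1 to 36.4) farther away, against 3.07% of genome windows of the same length. The difference, on regions minus farther away, was -1.09 points (-2.15 to -0.016), and with promoter peaks left out it was 0.19 points (-0.93 to 1.31). In WT cells this difference was -3.63 points (-4.49 to -2.77). AP-1 letters were more frequent early in the list, at 44.9% of the first 10% and 26.2% of the last 10% among K/D peaks on regions, and at 48.4% and 26.5% farther away. Where present they lay a median of 27 bp from the centre on regions and 27 bp farther away.

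Some of the other letters differed by place. The half-site of nuclear receptors (AAGGTCA or GAGGTCA) was at 23.4% of peaks on regions, 22.2% within 1 kb and 28.6% farther away, against 8.79% of genome windows, with a difference of -5.28 points between regions and farther away (-6.25 to -4.30). The motif of CTCF, the insulator protein, was at 0.35% on regions, 0.27% within 1 kb and 1.04% farther away, against 0.0354% of genome windows. A share of windows with a letter match is not the share bound by CTCF, which these lists do not measure. The paper reports that DAXX peaks overlapped CTCF peaks from ChIP-Seq. The motif of ETS factors (CCGGAAA or CCGGAAG) was at 3.22% on regions, 4.72% within 1 kb and 2.1% farther away, against 0.82% of genome windows. The letters of SP1 (GGGGCGGGG), a factor of CpG-rich promoters, were at 1.93%, 3.04% and 1.10% in the same order of places, against 0.29% of genome windows. At promoters SP1 letters were at 12.8% on regions (10.9 to 15.0), 17.8% beside them (15.7 to 20.1) and 13.1% farther away (10.8 to 15.7). Outside promoters they were at 0.91%, 1.02% and 0.63%. Windows with 10 or more CpG dinucleotides made up 9.47% on regions, 13.4% within 1 kb and 4.19% farther away. At promoters alone, AP-1 letters were at 12.7% of peaks on regions (10.7 to 14.8), 7.34% of those beside them (5.95 to 8.93) and 15.8% of those farther away (13.3 to 18.6). The letters of NFY (CCAAT, then C or G, then A or G) were at 5.55% of all peaks on regions, 6.92% within 1 kb and 6.08% farther away, against 6.20% of genome windows. At promoters they were at 8.47% on regions (6.86 to 10.3), 14.9% beside them (13.0 to 17.0) and 11.8% farther away (9.57 to 14.3). The letters of RUNX (TGTGGTC or TGTGGTT) were at 11.5% on regions and 13.1% farther away, with a difference of -1.51 points (-2.24 to -0.77), against 6.31% of genome windows. The TEAD letters (ACATTCC or GCATTCC), at 8.73% on regions and 8.67% farther away, against 5.19% of genome windows, had an interval of the difference of -0.57 to 0.70 points.

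**Figure D4:**
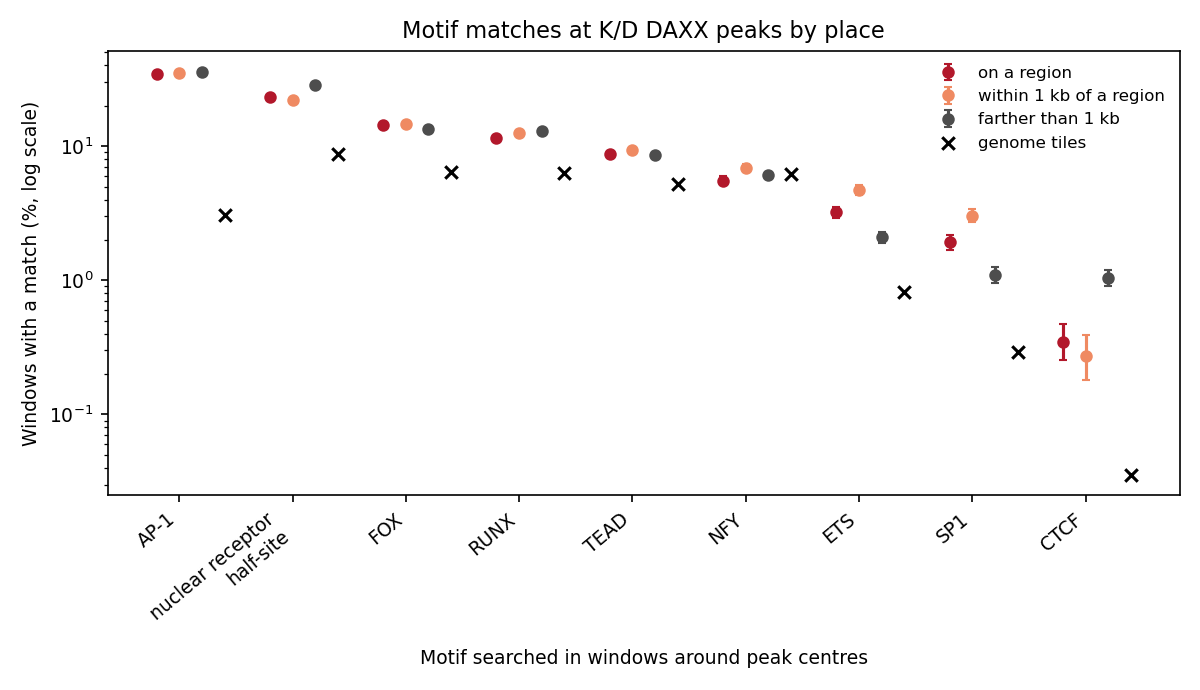
Share of 201 bp windows around K/D DAXX peak centres that held each motif (%, log scale) for peaks on an H3(Lys4) region, within 1 kb and farther away, with exact 95% binomial intervals, and for windows tiling the genome (crosses). AP-1 was near 35% in all 3 places, while CTCF was at 0.35% on regions and 1.04% farther away.

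Genes were grouped by what lay near their starts in K/D cells. Of 19812 protein-coding genes 17.8% had a DAXX peak on a region within 10 kb of a start, 24% had DAXX peaks within 10 kb off regions only, and 25.9% had a region within 1 kb of a start with no DAXX peak within 10 kb. The median distance from a gene to a DAXX peak was 15.6 kb. The lists below were chosen with results of these cells in view, so their counts are descriptions read beside these shares. A DAXX peak can count for more than 1 gene. Distances are to the nearest start of any protein-coding transcript of the gene, so a peak upstream of a start can lie inside the gene.

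Autophagy genes had DAXX both on and off regions. Of 47 core autophagy genes 17 had DAXX on a region, 13 had it only off regions, 15 had a region alone and 2 had neither. ATG101, a subunit of the ULK1 kinase complex, had a peak 5537 bp downstream of its start on a 1002 bp region. CALCOCO2, an autophagy receptor, had one 5181 bp upstream on a 501 bp region, and ATG16L1, part of the complex that attaches lipid to LC3, had one 1913 bp downstream on a 1462 bp region. VAMP8 and TMEM41B had DAXX off regions only. At TMEM41B, which encodes a lipid scramblase needed for autophagosome formation, the peak was 5 bp upstream of the start and 395 bp from a region, and at VAMP8, a fusion protein of the autophagosome, it was 5395 bp from a region.

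Among 25 genes drawn from the study, which chose them on these cells so that they are not independent of them, 10 had DAXX on a region, 7 only off regions, 5 a region alone and 3 (DAPK1, MTOR and RPTOR) neither. At GABARAP, an ATG8 family gene, the peak was 42 bp downstream of the start in a 2410 bp region. At BECN1, of the lipid kinase complex that starts autophagosomes, it was 324 bp downstream in a 1051 bp region, and no WT peak overlapped it. The BECN1 peak was at place 28249 of the K/D list. GABARAPL1 had a peak 500 bp upstream on a 501 bp region and MAP1LC3B, which encodes LC3B, one 279 bp upstream on a 640 bp region. ATG4D, which encodes a protease that processes ATG8 proteins, had one 1179 bp downstream. DEPTOR, an inhibitor of mTOR, had a peak 2449 bp upstream, and ETV1, an ETS factor gene, one 6589 bp downstream on a 1878 bp region. The DAXX gene itself had a peak 71 bp upstream of its start beside a region and one 2418 bp downstream on a 1969 bp region, and DNMT1 one 9601 bp upstream on a 501 bp region.

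At several starts DAXX lay beside the region instead. At ULK1, the kinase that initiates autophagy, the peak was 224 bp upstream and 380 bp from a 1304 bp region. At ATG4C it was 27 bp upstream and 419 bp from a region, and at ATG4B 34 bp downstream and 557 bp from a region. No WT peak overlapped these 3, which were late in the K/D list, at places 30232, 35255 and 35673. In the bins of 10% that hold them, bins 8 and 9, only 48.8% and 41.4% of peaks within 1 kb of a region had a WT peak. At DAPK3, a death-associated kinase gene, the peak was 1120 bp downstream and 1249 bp from a region. MAP1LC3A and WIPI2 had peaks about 8 kb away, 14.6 kb and 18.5 kb from the nearest region. ATG3, ATG4A, ATG7, GABARAPL2 and WIPI1 had a region at the start and no DAXX peak within 10 kb.

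Of 28 lysosome genes 11 had DAXX on a region and 7 only off regions. The peak at CTSD, the cathepsin D gene, lay 127 bp upstream in a 2855 bp region, and that at CD63, a tetraspanin gene, 211 bp upstream in a 2928 bp region. CTSA had one 5092 bp upstream on a 649 bp region. ATP6V1A, a subunit of the proton pump, had a peak 785 bp upstream and 935 bp from a region, and NPC1, a cholesterol exporter, one 7393 bp upstream and 31 bp from a region.

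The adhesion and invasion list had the largest share on regions of the 10 lists, 15 of 29 genes, with 9 more only off regions. AXL, a receptor tyrosine kinase gene, had an intronic peak 3081 bp upstream of a start on a 2264 bp region. ANXA2 had one 4815 bp downstream on a 3896 bp region. EGFR had an intronic one 1588 bp upstream of a start on a 1729 bp region. NRP1 and PLAU had DAXX only off regions, although their peaks were at places 3 and 6 of the K/D list, 236 bp and 112 bp from a region. In the YAP/TEAD list 3 of 15 genes had DAXX on regions (WWTR1, AMOTL2 and TEAD1). This was 20%, near the 17.8% of all protein-coding genes. Only off regions were 10, or 66.7% against 24.0% of all protein-coding genes. At CCN2, a matricellular target of YAP, the peak was 139 bp upstream of the start and 245 bp from a 501 bp region, and at CCN1 it was 3723 bp downstream and 822 bp from a region.

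Of 14 AP-1 factor genes 6 had DAXX on a region and 4 only off regions. MAFK had a peak 9898 bp upstream on a 1136 bp region and MAFF one 5178 bp downstream on an 830 bp region. ATF2 had an intronic one 1379 bp upstream of a start on a 950 bp region. FOSL1, the gene of FRA1, had a peak 2934 bp upstream and 2967 bp from a region, and MAFG one 1041 bp downstream. Of 29 genes for Lys4 enzymes and DAXX partners 10 had DAXX on a region and 8 only off regions, and the other 11 had a region without DAXX. At HDAC1, a histone deacetylase gene, the peak was 125 bp upstream on a 752 bp region. At UHRF1, which guides DNMT1 to replicating DNA, it was 1715 bp downstream and 203 bp from a region, and at RBBP5, a subunit of Lys4 methyltransferases, 313 bp upstream and 233 bp from a region.

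Of 35 ribosomal protein genes 6 had DAXX on a region (17.1%, near the 17.8% of all protein-coding genes), RPL37 and RPL27 among them, 12 had it only off regions and 13 had a region alone. RPS24 had its peak 13 bp from a region. Of 16 luminal and androgen genes 1 had DAXX on a region, PMEPA1, and 8 had it only off regions. The PMEPA1 peak was intronic, 1360 bp upstream of a start on a 501 bp region. NDRG1 and SLC45A3 had peaks 17.6 kb and 25.8 kb from the nearest region. KLK2 and KLK3, which mark androgen-driven prostate cells, had no region within 10 kb of a start and no DAXX peak within 10 kb. TMPRSS2 had a DAXX peak 65 bp upstream without a region within 10 kb. Of the other markers KRT18 and VIM had a region over the start, KRT8 and PLAU within 1 kb and CD44 at 2538 bp, as positions and not as expression. The 24 olfactory receptor genes of chromosome 11, silent in most tissues, had no region within 1 kb of a start and no DAXX peak within 10 kb, and 2 of them had a region within 10 kb.

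Across chromosomes the share of K/D DAXX peaks on regions ran between 24.4% on chromosome 8 and 31.5% on chromosomes 6, 13 and 18. Chromosomes 8 and 10 were lowest, with 24.4% and 24.6%, and had 51.3% and 51.7% of their peaks farther than 1 kb from any region. No K/D DAXX peak was called on chromosome Y.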

How the data were processed

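ChIP-Seq libraries of K/D and WT PC3 cells (8 samples, of which 6 have a list here) were sequenced. Per the labels and methods the authors used CASAVA 1.8.2 for base calling and Bowtie2 2.1.0 for alignment against hg19. Uniquely placed reads went into HOMER 4.6, which called peaks over the input of the same line. DAXX was called in factor style (fixed width) and H3(Lys4) in histone style (windows of 500 bp joined into regions). Per the file headers, limits were 4.00-fold over input with p at most 1.00e-04, and the tag set of each library is named as having an old and a new portion. Header totals were 18210051 tags for K/D DAXX, 18705056 for K/D H3(Lys4), 15208845 for WT DAXX and 16248943 for WT H3(Lys4). The deposited score column was constant and was not used, and the positions alone were analysed.

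Peaks off chromosomes 1 to 22, X and Y were left out. The deposited order stood in for strength. Within chromosomes it followed the caller's peak numbers with a median Spearman correlation of 0.991 for K/D DAXX and 0.605 for K/D H3(Lys4), so bins of the region list are less certain. Region overlaps, zones and densities were computed with python 3.11.15 and numpy 2.4.6, checked on simulated intervals. Assembly gaps were removed from the zones and from the distance classes outside regions, but not from the spaces between neighbouring regions. Intervals were exact binomial, Poisson or Newcombe at 95% (scipy 1.17.1), and no p-value was computed since each group had 1 library. Starts came from GENCODE 44 mapped to GRCh37, and sequence from GRCh37, the build of hg19. All symbols of the 10 gene lists matched. Genes and peaks were named by rule: the first 5 peaks of each place, the 5 widest regions and the 5 with most DAXX peaks, every gene taken from the study, and in each other list up to 3 genes with the earliest DAXX peak on a region and up to 2 with DAXX only off regions. Marker genes of prostate cells were fixed as a further list. A few genes that these rules name are not reported here. Members and lists were chosen with earlier results of these data known. A motif was counted when it lay within 100 bp of the centre. Of the 14 motifs searched 8 are described, chosen after their values were seen. Others, FOX and GATA among them, differed by place too. Alternatives were the centre in the region, at least 50% of the peak in it, the first 50% of either list, other zone widths, WT regions, lists of equal length, joined or wide regions, a window of 50 bp for AP-1, means over bins of 10% of the list, 2000 bp for promoters and 5 kb for genes.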

Additional observations from a re-analysis of the deposited data

Results flagged for a closer look

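Outside the chromosomes described, 18 K/D DAXX peaks and 34 K/D H3(Lys4) regions were called on other contigs of the build. They were left out of every share above, since the reference names these contigs differently, and no input list was at hand to set beside them.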

How the results depend on the processing

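Of 45 alternatives of the 10 main results, 11 stayed within the interval of the reported value, 32 moved outside it and 2 turned round. A turn was counted only for results that are differences, and shares and ratios could move either way. With the DAXX centre in the region, 23.0% of K/D peaks were on regions (the same 23.0% with at least 50% of the peak in it), 29.1% within 1 kb, and 13.0% of regions carried DAXX (13.0% at 50% as well). The difference of K/D from WT was then -7.75 points, the AP-1 difference -2.65 points and that of peaks also called in WT 0.56 points, with an interval that included 0. The first 50% of the DAXX list gave 25.2% on regions, 31.6% within 1 kb, -9.89 points from WT, a density ratio of 17.0, 7.24% of regions with DAXX and a promoter difference of 3.06 points. Its AP-1 difference was -0.78 points with an interval that included 0. The first 50% of the H3(Lys4) list gave 20.7% on regions, 14.7% within 1 kb, -6.71 points from WT, a density ratio of 16.6, 23.0% of regions with DAXX, 27.6% in the middle 20% of regions, -3.17 points for AP-1 and 7.23 points for promoters. Zones of 500 and 2000 bp held 19.2% and 29.3%. On WT regions lay 30.7% of K/D peaks, and the difference was -6.71 points with WT regions for both lists and -8.08 points with lists of equal length. The middle 20% held 27.1% with regions less than 1000 bp apart joined and 31.4% in regions of 1000 bp and more. The promoter difference was 8.60 points within 2000 bp of a start.

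Alternatives added after seeing the data averaged the difference in sharing with WT, within 1 kb minus on regions, over bins of the list (-1.38 points, against 9.46 pooled). They also left out promoter peaks, which turned the AP-1 difference to 0.19 points (-0.93 to 1.31), and regions of the minimum width, which left 22.2% of peaks on regions and 21.3% of regions with DAXX. At 5 kb from a start, 8 of 10 gene lists kept their number with DAXX on a region within 1.5 times, while the lysosome list had 5 genes and the ribosomal list 2. The cause of these shifts was not tested. No paired analysis was possible because each group was 1 library. A peak that was not called is not shown to be empty, and the lists do not give depth per site.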
